A study of Mus musculus with 5 samples.

Results

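The collagen chains are the genes whose symbol is Col, a number, the letter a and a number, and they were taken wherever a probe set was annotated to such a gene alone. The rule found 36 genes among the 12393 genes named on the array, read by 58 probe sets. Where a gene had several probe sets, the one with the highest mean signal over the arrays stood for it. Another 8 collagen genes of the RefSeq list (Col6a4, Col6a5, Col6a6, Col8a2, Col23a1, Col24a1, Col27a1 and Col28a1) were not analysed here.

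The samples form a dilution series of 1 RNA pool into another, all from C57BL/6 mice. RNA of whole mice aged 1 day and RNA of the colon of mice aged 8 weeks, each pooled from several animals, were combined at colon shares of 0%, 25%, 50%, 75% and 100% of total RNA. Each mix was amplified from 10 ng in a double T7 reaction and hybridised to 1 Affymetrix MOE430 array. No mix had a second array, and tissue and age differ together between the pools, so their parts cannot be told apart. Signals are the authors' log2 RMA values, and the 5 values of a gene are given in order of rising colon share.

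Collagens are secreted as trimers of chains wound into a triple helix, and the identity of the chains decides what they build. Fibrillar collagens form the tensile fibres of skin, bone, tendon and gut wall, whereas cartilage has its own fibril collagens and a coat of type IX on them. Type IV collagen forms the sheet-like network of basement membranes under epithelia and around vessels and muscle. A whole newborn contains growing skin, bone and cartilage, and the adult colon holds a submucosa, smooth muscle and a basement membrane below its epithelium.

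In the 5 arrays, the median log2 signal lay between 6.83 and 6.92. A gene "fell" or "rose" when the slope of its log2 signal on colon share passed an adjusted p of 0.05 (limma, Benjamini-Hochberg over 22626 probe sets). Slopes are per full change of colon share, so a negative one means less in colon than in whole mouse, and each has its standard error (SE). All arrays carry the same 2 pools, so the p-values cover technical spread and any bend away from a straight line, not the spread between mice. Of 7 measured markers of colon epithelium, all 7 were at least 2-fold higher on the colon array (2 rose), and of 6 markers of cartilage cells all 6 fell. Across all probe sets 1953 rose and 2456 fell, a split that became 3148 and 2325 when the arrays were centred on their medians. In bulk RNA, fewer cells of a type and less RNA per cell cannot be told apart.

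Most collagen chains were lower in colon than in the whole newborn, and none was higher past the threshold. Of 36 genes, 25 fell, 0 rose and 11 did not pass, where 14.5% of all genes fell and 9.8% rose (24.3% in either direction). At an unadjusted limma p under 0.05, where the share over all genes was not counted, 28 had a slope below 0 and 2 a slope above 0. The median slope was −1.57 log2, beside −0.01 over all genes. On the undiluted arrays 25 collagen genes were at least 2-fold lower in colon and 0 at least 2-fold higher, against 10.4% and 9.26% of all genes. In 23 of the 36 the 5 signals fell in strict order, an order seen in 12.1% of all genes. The slopes of the fallen chains ran from −0.90 for Col12a1 to −4.34 for Col2a1.

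**Figure D1:**
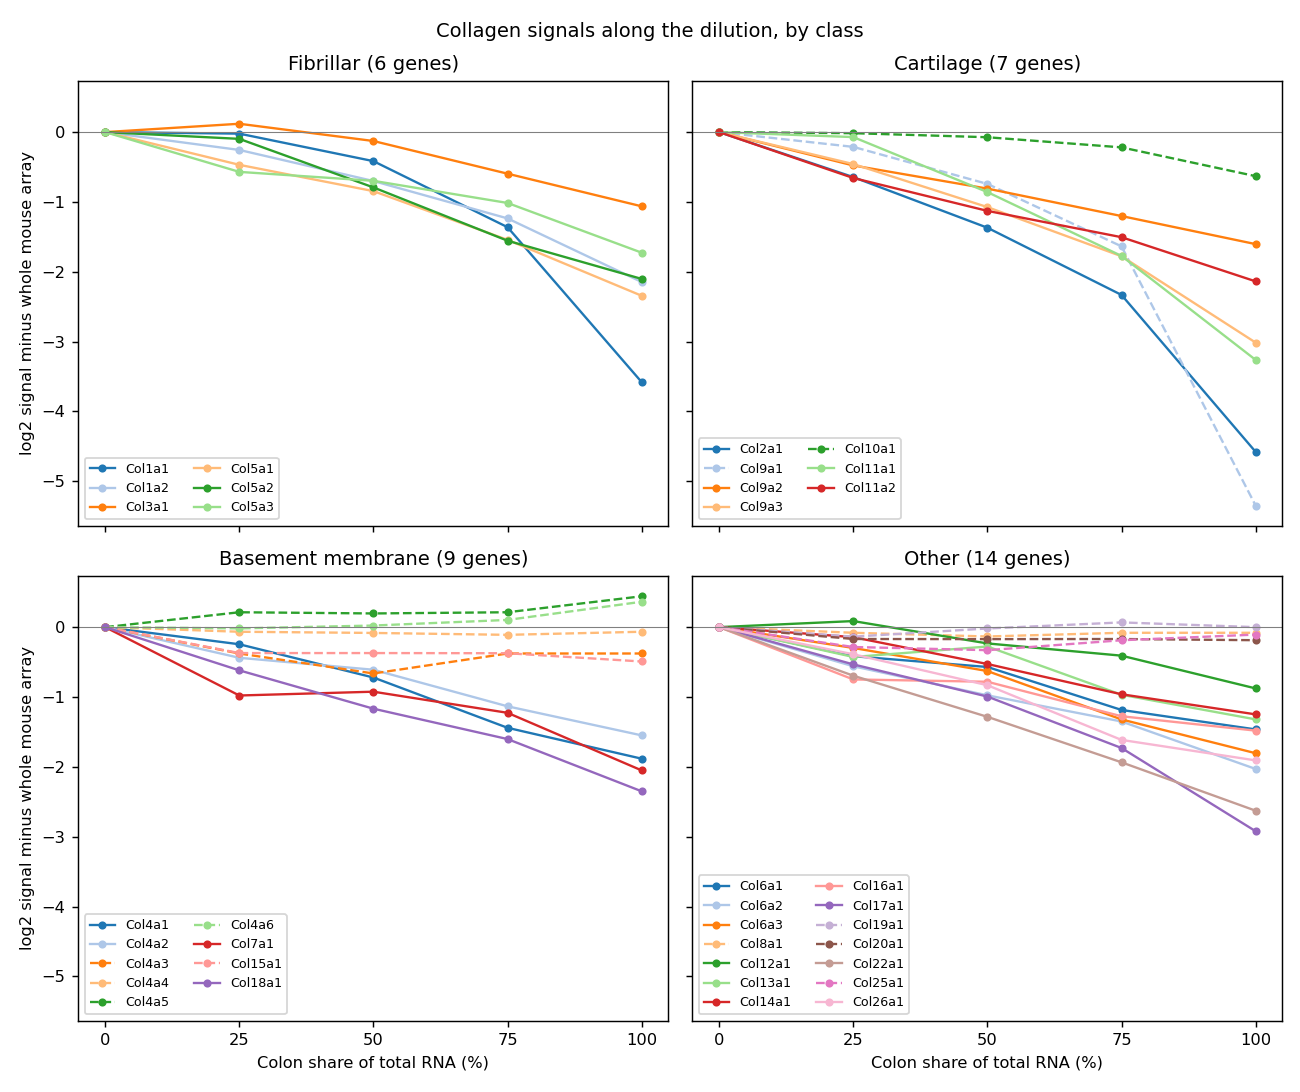
Log2 signal of each collagen gene minus its signal on the whole mouse array (y axis), against the colon share of total RNA in percent (x axis), with 1 point per array and 1 panel per class. Solid lines mark the 25 genes that fell and dashed lines the 11 that did not pass, and only the lines of Col4a5 and Col4a6 end more than 0.3 log2 above 0 on the colon array.

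The count rested in part on the number of arrays. With 1 array left out, 19 chains fell without the whole mouse array, 21 without the 25% mix, 21 without the 50% mix, 18 without the 75% mix and 12 without the colon array. The share of all probe sets that fell also dropped in these fits, to between 3.66% and 7.48% in place of 10.9%. All 25 kept a slope below 0 in each fit. The chains that fell in all 5 leave-out fits were the 11 genes Col1a2, Col4a2, Col5a1, Col6a2, Col9a2, Col9a3, Col11a2, Col17a1, Col18a1, Col22a1 and Col26a1. Col1a1 passed in none of them.

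All 6 measured fibrillar chains outside the cartilage class fell, with a median slope of −2.19 log2. Without the colon array 2 of them passed and without any other single array 4. Type I collagen, the main fibre of bone, skin and tendon, is built from the products of Col1a1 and Col1a2. Col1a1 had log2 signals of 12.04, 12.02, 11.63, 10.68 and 8.46, so the whole mouse array and the 25% mix were alike and the colon array stood far below the others. Its slope was −3.40 log2 (SE 0.77, limma adjusted p = 0.0424). With 1 array left out the adjusted p lay between 0.0696 and 0.119 (the slope was −1.79 without the colon array), and with an intensity trend and robust moderation it was 0.054. Col1a2 had 14.00, 13.75, 13.30, 12.77 and 11.85, with the largest step before the colon array. Its slope was −2.11 log2 (SE 0.23, limma adjusted p = 0.00878).

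The brightest probe sets of Col1a1 and Col1a2 had slopes that differed by −1.29 log2 (Col1a1 minus Col1a2), but the dimmer probe set of Col1a2 did not follow its brighter one. That dimmer set had signals of 12.23, 12.15, 11.56, 10.59 and 8.66 and a slope of −3.48, close to the −3.40 of Col1a1. The brighter probe set of Col1a2 stood at 14.00 in whole mouse, where the highest signal of any probe set on that array was 14.75. Whether a signal near the top of the range is compressed was not tested. The difference between the chains was not tested either.

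The promoter of Col1a2 is shown because the gene fell in each leave-out fit and its proximal promoter is a much studied collagen control region. The 250 bases before its start (RefSeq, GRCm38.p6, chr6:4505368-4505617, plus strand) hold a CCAAT box and a pair of GC boxes (GGGCGG), in capitals.
Col1a2: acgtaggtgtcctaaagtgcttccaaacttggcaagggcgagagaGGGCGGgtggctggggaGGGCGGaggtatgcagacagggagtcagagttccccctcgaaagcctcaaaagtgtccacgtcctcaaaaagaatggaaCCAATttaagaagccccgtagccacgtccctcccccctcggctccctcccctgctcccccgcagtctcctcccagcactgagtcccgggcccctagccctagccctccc

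Type III collagen, which forms the fine reticular fibres of gut wall, vessels and young skin, had the smallest fall of the fibrillar chains by brightest probe set, but not with probe sets averaged (−1.78, against −0.83 for Col5a3). The average of Col5a3 takes in a dimmer probe set that lay within the range of the poly-A control probe sets. Col3a1 had log2 signals of 13.18, 13.30, 13.06, 12.59 and 12.12, with the 25% mix above the whole mouse array. Its slope was −1.14 log2 (SE 0.24, limma adjusted p = 0.0354). Of the fits with 1 array left out, it passed only in that without the whole mouse array (adjusted p = 0.0342, and up to 0.213 without the colon array). Its dimmer probe set had 8.996, 9.30, 8.48, 7.71 and 6.76 and a slope of −2.43, a larger fall with the same high value at 25%. Col1a2 and Col3a1 thus each had a brightest probe set above 13 in whole mouse and a dimmer one that fell further.

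The window before the start of Col3a1 (RefSeq, GRCm38.p6, chr1:45311288-45311537, plus strand) is shown for contrast with that of Col1a2. It holds a TATA box (TATAAA) and 2 overlapping copies of a SOX core (AACAAT), in capitals, with no GC or CCAAT box in these letters.
Col3a1: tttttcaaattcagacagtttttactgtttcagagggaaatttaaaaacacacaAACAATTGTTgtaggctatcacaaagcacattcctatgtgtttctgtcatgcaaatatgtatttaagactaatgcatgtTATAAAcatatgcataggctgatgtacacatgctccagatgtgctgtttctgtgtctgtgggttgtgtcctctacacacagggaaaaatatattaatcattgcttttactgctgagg

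Type V collagen sits inside type I fibrils and limits their width. Col5a1 had log2 signals of 11.35, 10.89, 10.51, 9.81 and 9.01, falling on each array (slope −2.30, SE 0.18, limma adjusted p = 0.00495). Col5a2, its usual partner, had 11.93, 11.84, 11.14, 10.38 and 9.83 (slope −2.26, SE 0.23, limma adjusted p = 0.00729). The slopes of these partners were 0.04 log2 apart, less than either SE. Col5a3, a chain of more restricted distribution, had 8.58, 8.01, 7.89, 7.57 and 6.86 (slope −1.56, SE 0.19, limma adjusted p = 0.0106). Its dimmer probe set stayed between 4.27 and 4.57, within the range of the poly-A control probe sets. Col3a1 and Col5a2 are neighbours on chromosome 1 in the RefSeq annotation. Their slopes were −1.14 and −2.26 by brightest probe set, and −2.43 and −2.71 by the dimmer one.

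Cartilage chains had a median slope of −2.94 log2, with 5 of 7 past the threshold and 6 of 7 at least 2-fold lower in colon. All 7 fell in strict order over the 5 arrays. Col2a1, the chain of type II collagen and the bulk fibre of cartilage, had log2 signals of 11.99, 11.35, 10.62, 9.66 and 7.41. Its slope of −4.34 (SE 0.58, limma adjusted p = 0.0125) was the largest among the chains that passed, and the colon array read 7.41, against 11.99 in whole mouse, a difference of 23.9-fold.

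Type XI collagen forms the core of cartilage fibrils together with type II. Col11a1 had log2 signals of 8.44, 8.37, 7.58, 6.67 and 5.18 (slope −3.29, SE 0.46, limma adjusted p = 0.0145), flat between the whole mouse array and the 25% mix. Col11a2 had 8.26, 7.61, 7.14, 6.76 and 6.13 (slope −2.05, SE 0.12, limma adjusted p = 0.00393), already lower at 25%. On the colon array Col11a1 was within the range of the poly-A control probe sets (2.99 to 5.21), which leaves the size of its fall inexact.

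Type IX collagen decorates the surface of type II fibrils and is a trimer of Col9a1, Col9a2 and Col9a3 products. Col9a1 had log2 signals of 9.91, 9.70, 9.17, 8.28 and 4.57, with the colon array within the range of the control probe sets. Its fold difference is therefore inexact, and the gene missed the threshold (slope −4.85, SE 1.22, limma adjusted p = 0.0527). It passed when linear intensities were regressed on colon share (adjusted p = 7.3e-04) and when the arrays were centred on their medians (0.0335). It also passed when dim probe sets were left out (0.0398) and when the gene's probe sets were averaged (0.0327). It did not pass with an intensity trend and robust moderation (limma adjusted p = 0.0852) or in any of the 5 leave-out fits. Without the colon array its slope was −2.17 (limma adjusted p = 0.0621).

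The other chains of type IX fell and passed. Col9a2 had log2 signals of 6.86, 6.39, 6.05, 5.66 and 5.26 (slope −1.57, SE 0.10, limma adjusted p = 0.00393). Col9a3 had 10.15, 9.69, 9.08, 8.37 and 7.14 (slope −2.94, SE 0.28, limma adjusted p = 0.0065), while its other probe sets had slopes of −3.34 (adjusted p = 0.0339) and −0.17 (adjusted p = 0.586). The last of these probe sets stayed between 3.42 and 3.84, within the range of the control probe sets. The undiluted difference was −1.60 log2 for Col9a2 and −3.01 for Col9a3, none is given for Col9a1 because of its colon signal, and whether these chains differ was not tested. On the colon array Col9a2 (5.26) was just above the range of the control probe sets (up to 5.21), so the size of its fall may be inexact too.

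The probe sets of Col9a1 gave different falls, and the gene has 2 starts in RefSeq. The dimmer probe set had log2 signals of 7.94, 7.61, 7.59, 7.54 and 6.96, a fall of 0.81 (SE 0.19, limma adjusted p = 0.0466), 4.04 smaller than that of the brighter one. The transcript that each probe set reads was not determined. The 250 bases before each start (RefSeq, GRCm38.p6, plus strand, chr1:24177360-24177609 and chr1:24194953-24195202) are shown because a gene with 2 starts can yield transcripts of different tissues. The first holds none of the motifs searched, and the second a CCAAT box on one strand, in capitals.
Col9a1 upstream start: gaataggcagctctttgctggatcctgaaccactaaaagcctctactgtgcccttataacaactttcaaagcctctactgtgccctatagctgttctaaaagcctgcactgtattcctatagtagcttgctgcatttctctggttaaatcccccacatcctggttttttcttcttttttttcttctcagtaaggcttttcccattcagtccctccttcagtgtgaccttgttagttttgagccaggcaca
Col9a1 downstream start: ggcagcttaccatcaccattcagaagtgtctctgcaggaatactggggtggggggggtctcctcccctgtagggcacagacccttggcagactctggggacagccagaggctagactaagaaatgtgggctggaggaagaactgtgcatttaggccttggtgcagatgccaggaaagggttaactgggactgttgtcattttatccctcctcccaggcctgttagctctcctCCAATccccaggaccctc

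Col10a1, made by the hypertrophic chondrocytes of growth plates, had the smallest change of the class by brightest probe set. Its log2 signals were 6.42, 6.40, 6.34, 6.20 and 5.79, with most of the drop on the colon array (slope −0.59, SE 0.17, limma adjusted p = 0.0696, and −0.29 without that array).

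**Figure D2:**
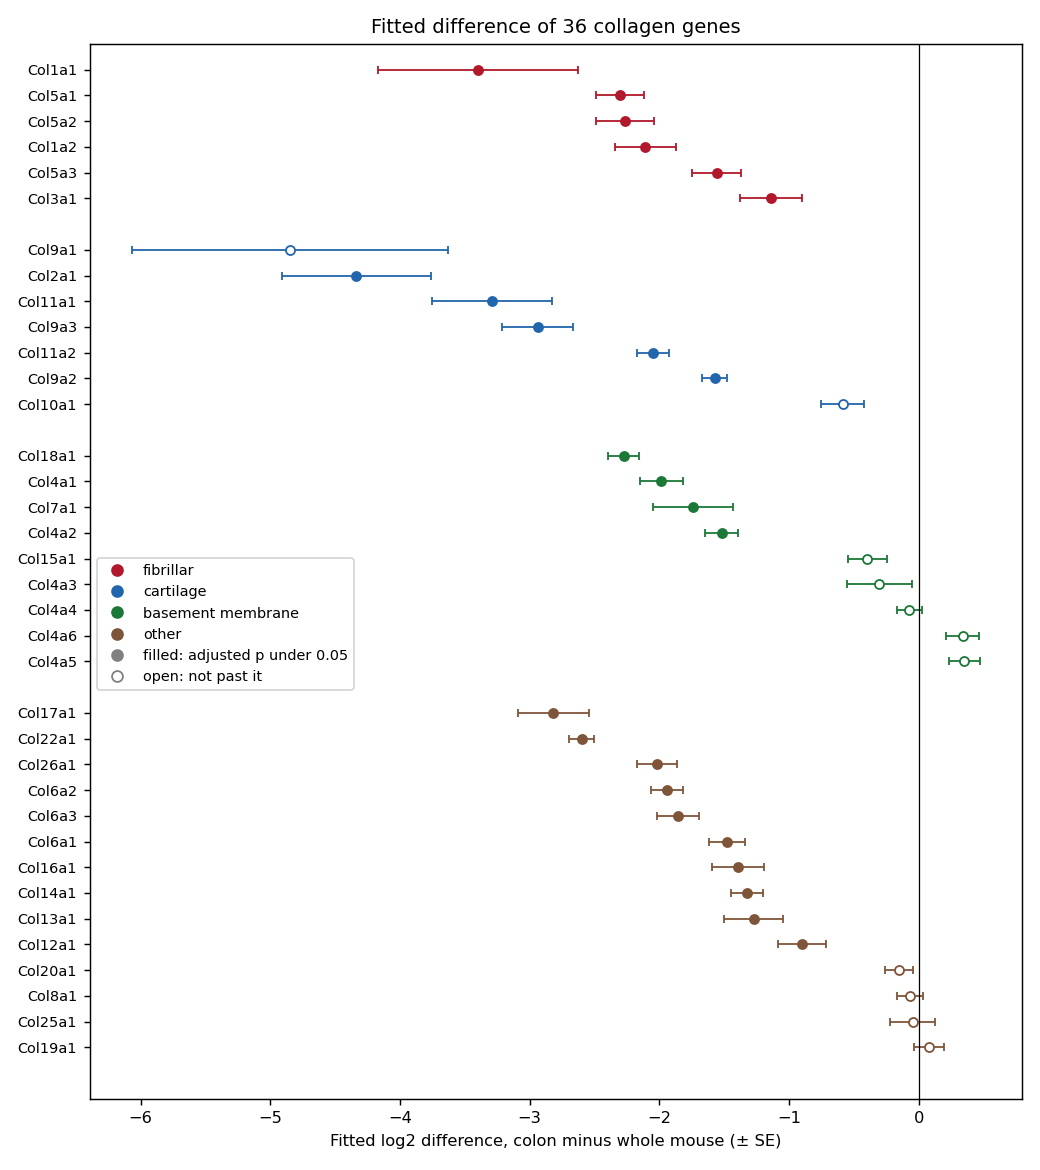
Fitted log2 difference, colon minus whole mouse (x axis), of the 36 collagen genes, grouped by class and ordered by size, with bars for the SE of the limma fit. Filled points passed an adjusted p of 0.05; cartilage chains reach the furthest left (−4.85 for Col9a1, open), and the type IV chains split between −1.98 for Col4a1 and 0.35 for Col4a5.

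Of the 6 chains of type IV collagen, Col4a1 and Col4a2 fell and the other 4 did not pass. The genes lie head to head on their chromosomes, Col4a1 with Col4a2 on 8, Col4a3 with Col4a4 on 1 and Col4a5 with Col4a6 on X. Col4a1 and Col4a2 encode the type IV trimer of nearly every basement membrane, including those of vessels and muscle. Col4a1 had log2 signals of 11.34, 11.09, 10.61, 9.90 and 9.45 (slope −1.98, SE 0.16, limma adjusted p = 0.0053). Col4a2 had 10.96, 10.52, 10.35, 9.83 and 9.41 (slope −1.52, SE 0.13, limma adjusted p = 0.00543). Both fell on each array in turn, and the second probe set of Col4a1 fell by 1.08 log2.

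The starts of Col4a1 and Col4a2 in the RefSeq promoter table are only 21 bases apart on opposite strands. The run of 22 bases from one start to the other (GRCm38.p6, chr8:11312805-11312826, plus strand) is shown because these partner chains share it. It lies after the start of each gene on that gene's strand, unlike the windows before a start shown for other genes.
Col4a1 and Col4a2: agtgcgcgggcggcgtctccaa

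The chains found in basement membranes of kidney, lung and eye did not pass. Col4a3 had log2 signals of 5.53, 5.15, 4.87, 5.15 and 5.15 (slope −0.30, SE 0.25, limma adjusted p = 0.473, and 0.11 without the whole mouse array), with the highest value in whole mouse. Col4a4 had 4.04, 3.97, 3.96, 3.93 and 3.97, within the range of the control probe sets, so no difference could be read at this signal (adjusted p = 0.681).

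The third pair had signals highest in colon. Col4a5 and Col4a6 encode chains of epithelial and smooth muscle basement membranes. Col4a5 had log2 signals of 5.80, 6.01, 6.00, 6.01 and 6.24 (slope 0.35, SE 0.12, limma adjusted p = 0.107). Col4a6 had 6.92, 6.90, 6.94, 7.02 and 7.28 (slope 0.34, SE 0.13, limma adjusted p = 0.14, and 0.14 without the colon array). Neither passed, while in both genes each of the 2 probe sets had its highest signal on the colon array. Their starts lie 1343 bases apart on opposite strands.

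Markers of cell types that share these basement membranes were read as well. Of 5 smooth muscle markers 2 rose, where 9.8% of all genes did, and the median slope of the list was 2.13 log2. Des had a slope of −0.33, and the other probe sets of Acta2 and Myh11 had 0.13 and 0.005. Of 5 endothelial markers 3 fell, where 14.5% of all genes did, and the median slope of the list was −0.98. In its brighter probe set Cdh5 had 5.98 in colon and 7.56 in whole mouse, while its other probe set had a slope of −0.12. Pecam1 and Tek did not pass, with slopes of −0.37 and −0.98. The part of these cell types in the type IV signals was not tested.

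Among the other chains of the basement membrane class, which does not take in Col17a1, Col18a1 had the largest fall. Col18a1, a vessel and epithelial basement membrane collagen whose end fragment is endostatin, had log2 signals of 11.00, 10.38, 9.83, 9.40 and 8.65 (slope −2.27, SE 0.12, limma adjusted p = 0.00373). Col7a1, which forms the anchoring fibrils that tie epidermis to dermis, had 9.69, 8.72, 8.77, 8.47 and 7.64 (slope −1.74, SE 0.31, limma adjusted p = 0.0236). Most of its change lay in a step between the whole mouse array and the 25% mix and another before the colon array, and of the leave-out fits it passed only without the 25% mix (adjusted p = 0.0324). Col15a1, a relative of Col18a1 in muscle and vessels, had 7.74, 7.37, 7.37, 7.37 and 7.25 and did not pass (slope −0.39, adjusted p = 0.134, and −0.15 without the whole mouse array). In all, 4 of the 9 genes of this class fell, with a median slope of −0.39 log2, and 2 without the colon array.

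Of the 14 remaining chains 10 fell, with a median slope of −1.36 log2, and without the colon array 4 passed. Type VI collagen, a beaded microfibril around muscle fibres and other cells, takes 1 product of each of Col6a1, Col6a2 and Col6a3. Col6a1 had log2 signals of 12.38, 11.97, 11.81, 11.20 and 10.92 (slope −1.48, SE 0.14, limma adjusted p = 0.0066). Col6a2 had 12.78, 12.22, 11.81, 11.43 and 10.75 (slope −1.94, SE 0.13, limma adjusted p = 0.00393). Col6a3 had 11.96, 11.66, 11.33, 10.64 and 10.15 (slope −1.85, SE 0.16, limma adjusted p = 0.00574). The slopes of these 3 chains thus lay within 0.46 log2 of each other. Col6a1 and Col6a2 are neighbours on chromosome 10, and whether their falls differ was not tested.

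Col17a1, the hemidesmosome collagen that anchors basal keratinocytes, had log2 signals of 7.86, 7.33, 6.87, 6.13 and 4.94 (slope −2.82, SE 0.28, limma adjusted p = 0.00699), ending within the range of the control probe sets. Col22a1, found at muscle-tendon junctions, had 8.01, 7.32, 6.73, 6.07 and 5.38, evenly spaced steps that gave the smallest SE of any member (slope −2.60, SE 0.09, limma adjusted p = 0.00357). Its second probe set fell by 0.81. Markers of skeletal muscle had a median slope of −6.18 log2 and those of epidermis −5.52, with all 4 measured genes of each at least 4-fold lower in colon (1 and 2 of them past the threshold), and their part in these falls was not tested.

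Other chains found along fibrils passed as well. Col16a1 had a slope of −1.40 log2, Col14a1 of −1.33 and Col12a1 of −0.90, the last with the 25% mix (8.00) above whole mouse (7.91). Col12a1 passed in 1 of the 5 leave-out fits, Col16a1 in 2 and Col14a1 in 4. The transmembrane chain Col13a1 fell by 1.27 log2, passing in 1 leave-out fit, and Col26a1, described in testis and ovary, by 2.02, passing in all 5. On the colon array Col26a1 (5.24) was just above the range of the control probe sets (up to 5.21), so the size of its fall may be inexact.

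Of the 4 chains of the last class that did not pass, none had a slope beyond 0.15 log2 in size. Col8a1, a short-chain collagen of vessel walls and the eye, had log2 signals of 6.33, 6.25, 6.19, 6.25 and 6.25, a range of under 0.15 (adjusted p = 0.725). Col19a1 read 5.0 on both undiluted arrays, within the range of the control probe sets. Col20a1 lay between 6.23 and 6.42, and Col25a1, a transmembrane collagen of neurons, between 7.28 and 7.61 with 7.50 in colon.

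Probe sets of 1 gene usually agreed in direction but not in size. Of the 19 collagen genes with several, 16 had slopes of 1 sign, the exceptions being Col8a1, Col19a1 and Col20a1, none of which passed. In 11 of the 13 fallen genes among them every probe set fell, and Col5a3 and Col9a3 each had a probe set that did not pass. Those sets stayed between 4.27 and 4.57 (Col5a3) and between 3.42 and 3.84 (Col9a3). Both lay within the range of the control probe sets, so no fall could be read from them. The slopes of 1 gene's probe sets lay a median of 0.64 log2 apart and more than 1 apart in 7 genes, Col5a3 and Col9a3 included. The brightest probe set had the largest fall in 6 of the 13. Over all 58 probe sets 39 fell and 0 rose, where 10.9% and 8.63% of all probe sets did.

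**Figure D3:**
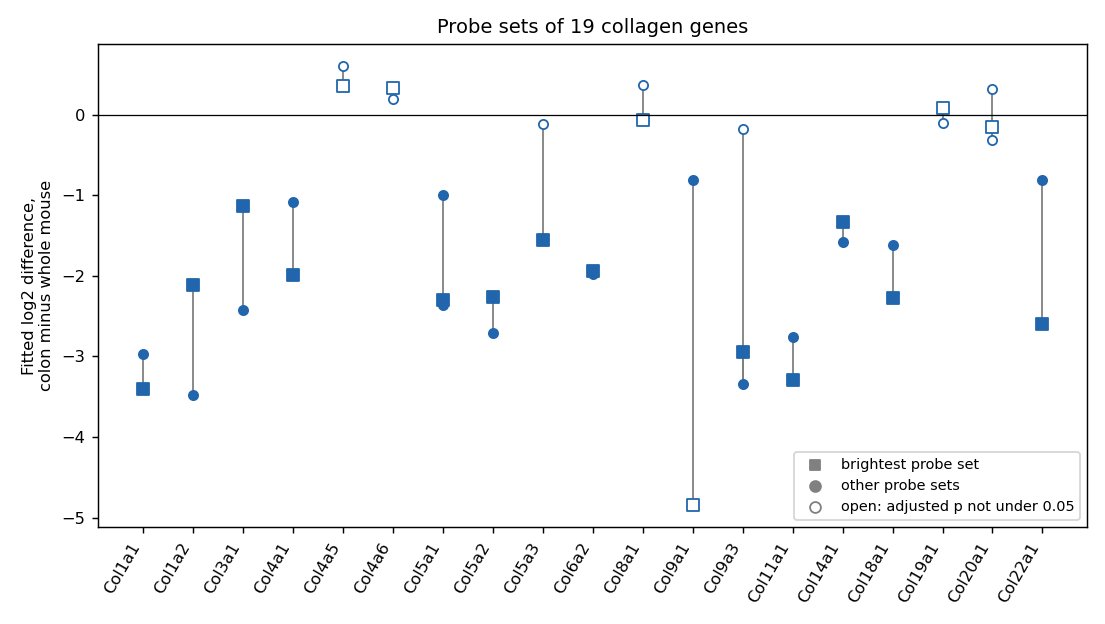
Fitted log2 difference, colon minus whole mouse (y axis), of every probe set of the 19 collagen genes with more than 1 (x axis); squares are the brightest probe set and circles the others. Filled symbols passed an adjusted p of 0.05, and the widest spread is that of Col9a1, from −4.85 to −0.81.

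Since the shares of the mixes are known, each gene has a value that its linear intensity would take if both pools mixed in proportion. For the 25 collagen genes at least 2-fold lower in colon, the drop of the mixes corresponded to colon shares of 35.6%, 55.1% and 82.7% (medians) at 25%, 50% and 75% colon. For all 1284 genes lower by that much the medians were 36%, 62.9% and 80.6%. The medians of the collagens were thus close to those of all colon-low genes at 25% and 75%, and at 50% nearer the known share. The difference was not tested.

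Single chains departed in both directions. In its brightest probe set Col1a2 stayed within 0.06 log2 of the proportional value in each mix, while its dimmer one was 0.29, 0.22 and 0.04 above it. The brightest probe set of Col1a1 was above it by 0.35, 0.47 and 0.32, against 0.06, 0.41 and −0.09 in the dimmer one. Col3a1 was above it by 0.32, 0.31 and 0.12, and by 0.62, 0.21 and 0.01 in its dimmer probe set. Probe sets of 1 gene thus departed by different amounts. Col2a1 was below it by a difference of −0.25, −0.43 and −0.50 and Col22a1 of −0.36, −0.50 and −0.51. Over the 36 genes the standard deviation of this difference was 0.23, 0.22 and 0.20 log2, and over all genes 0.26, 0.22 and 0.18.

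**Figure D4:**
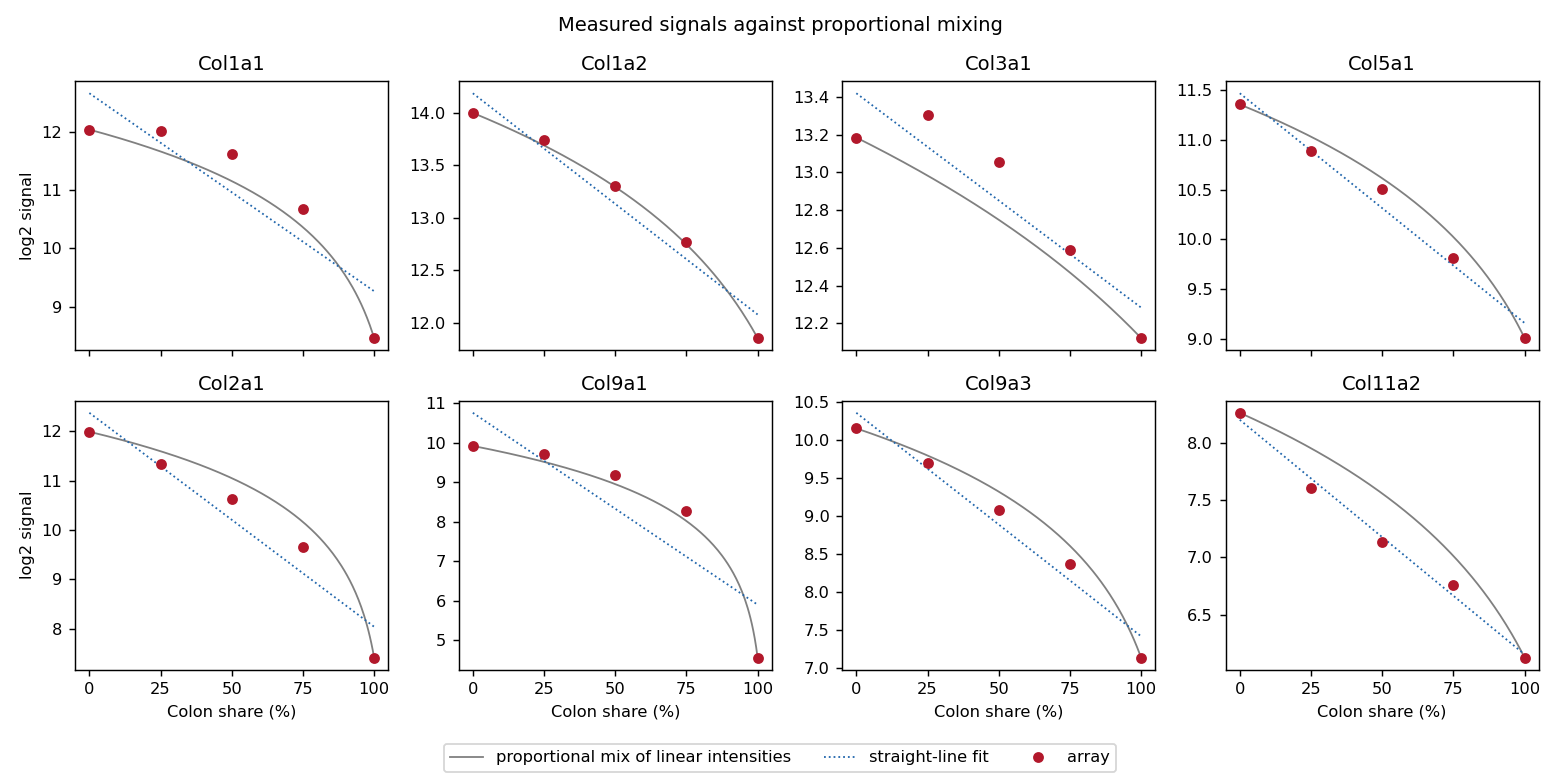
Log2 signal (y axis) against colon share in percent (x axis) for 8 collagen genes, with 1 red point per array, the proportional mix of the undiluted linear intensities as a grey curve and the straight-line fit as a dotted line. Col1a2 follows the curve, Col1a1, Col3a1 and Col9a1 lie above it in the mixes and Col2a1 and Col11a2 below it.

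The curve bears on the test. A chain nearly absent from colon bends on the log2 scale even when it mixes in proportion. For Col9a1 the residual standard deviation of the straight line was 1.24 log2, and 1.09 when the line was fitted to the proportional values alone. For Col22a1 it was 0.03, against 0.31 from the proportional values, a straighter line than proportional mixing gives, but its dimmer probe set went the other way, with 0.13 against 0.02.

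Proteins that make, trim and bind collagen were measured on the same arrays. In the endoplasmic reticulum, 7 of 16 genes of folding and modification fell and 2 rose, with a median slope of −0.51 log2. Over all genes 14.5% fell and 9.8% rose, shares that stand beside the counts of each list here, and the rises among folding genes are near that background. P3h4, part of the complex that modifies collagen lysines, had a slope of −2.04, Crtap, which acts in prolyl 3-hydroxylation, of −1.67, and the prolyl 3-hydroxylase P3h1 of −1.42. The collagen chaperone Serpinh1 (Hsp47) fell by 1.20 log2 (SE 0.29, limma adjusted p = 0.0478), with 9.34 in colon and 10.45 in whole mouse. P4hb, a subunit of prolyl 4-hydroxylase that also serves other secreted proteins, stayed between 12.49 and 12.78 (adjusted p = 0.395). The genes that rose were Creb3l1, a transcription factor of secretory cells (1.11), and Mia3, which loads collagen for export (1.01 in its brightest probe set and 0.32 in the other). Neither of these passed in any fit that left out an array, and the list then had 3 to 6 falls (3 without the whole mouse or the colon array, 4 without the 75% mix).

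Outside the cell, 6 of 9 genes of propeptide removal and cross-linking fell and 0 rose (median slope −0.88 log2). Pcolce, which enhances removal of the C-propeptide, had log2 signals of 11.56, 10.93, 10.40, 9.86 and 9.10 (slope −2.40, SE 0.11, limma adjusted p = 0.00357). The cross-linking oxidases Lox and Loxl1 had slopes of −2.24 and −2.03 log2, although the probe sets of Lox ran from −2.24 to −0.15, and Loxl4 lay between 6.39 and 6.54. Of 12 breakdown genes 9 fell and 0 rose (median −1.54, with 5 falls without the 50% mix or the colon array and 6 without any other). This list also holds protease inhibitors, of which Timp1 (−2.77) and Timp2 (−0.54) fell and Timp3 did not pass. The proteases that fell included the osteoclast protease Ctsk (−3.78), the collagenase Mmp13 (−3.35) and the gelatinase Mmp9 (−3.23). Without the colon array the slopes were −2.49 for Ctsk and −2.22 (limma adjusted p = 0.102) for Mmp13. Of the leave-out fits, Ctsk passed only without the 75% mix or the colon array. Mmp13 passed only without the whole mouse array, and Mmp9 in each. Pepd, which splits proline-ended dipeptides, stayed between 10.76 and 10.80.

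Of 12 genes that bind fibrils, 5 fell, 1 rose and 6 did not pass (median slope −0.47 log2), and 2 fell without the 75% mix or the colon array and 3 without any other. The gene that rose was the small proteoglycan Prelp (slope 0.78, adjusted p = 0.0276, and −0.12 in its other probe set). Of the fits with 1 array left out, only that without the 25% mix had a rise. Slopes were −5.10 for fibromodulin (Fmod), −3.25 for the cartilage protein Comp and −1.97 for biglycan (Bgn). Fmod had −3.18 without the colon array, the only leave-out fit in which it passed. Decorin (Dcn), a small proteoglycan on type I fibrils and a fibroblast marker, had log2 signals of 10.39, 10.73, 10.73, 10.68 and 10.95 (slope 0.43, SE 0.15, limma adjusted p = 0.113, and 0.25 without the whole mouse array). The fibroblast genes Lum, Dpt and Pdgfra did not pass either, with slopes of −0.31, 0.34 and −0.21, and of the 6 fibroblast markers Pdgfrb and Thy1 fell. Over all genes 14.5% fell, and the part of fibroblasts in the falls of the type I and III chains was not tested.

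**Figure D5:**
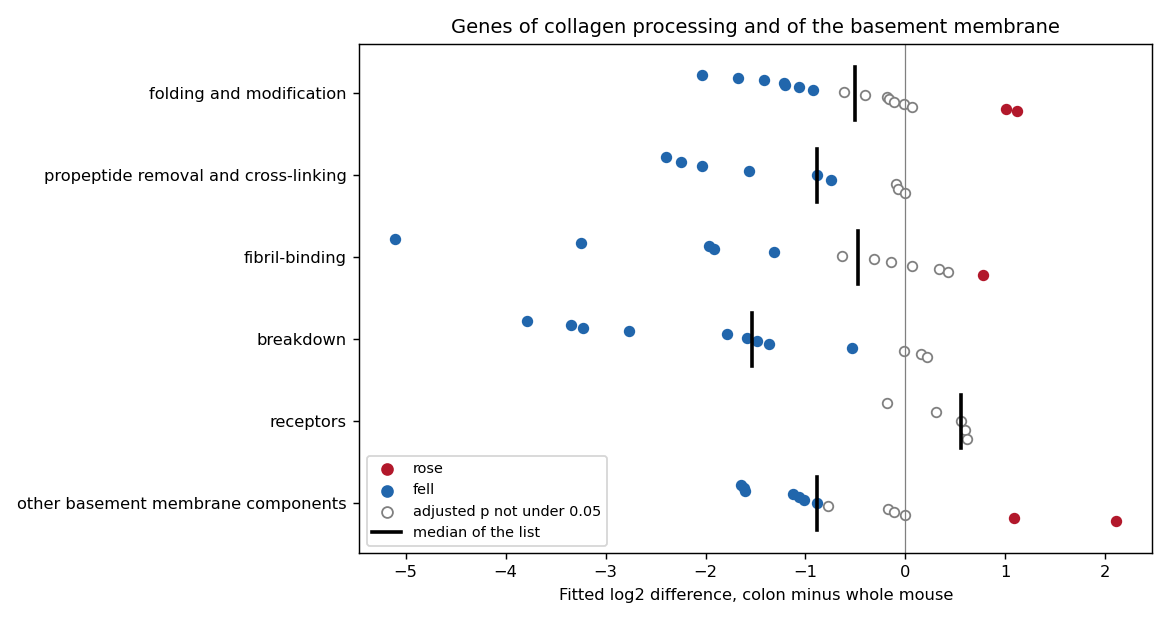
Fitted log2 difference, colon minus whole mouse (x axis), of the measured genes of 6 lists around collagen (rows), with 1 point per gene and a black bar at the list's median. The medians of breakdown genes with their Timp inhibitors (−1.54) and of propeptide removal and cross-linking (−0.88) lie left of 0, and that of the receptors (0.56) right of it.

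The 5 measured collagen receptors did not pass in either direction (limma). The integrin subunit Itgb1 had a slope of 0.59 log2 (adjusted p = 0.121, and 0.27 without the whole mouse array), and 4 of the 5 slopes were above 0 by brightest probe set. Over all probe sets of a gene the slopes ran from −0.28 to 1.06 for Itgb1 and from −0.07 to 0.78 for Ddr1. With arrays centred on their medians 1 receptor, Ddr1, rose.

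Of 13 other components of the basement membrane 7 fell and 2 rose (median slope −0.89 log2). With 1 array left out, 3 fell without the whole mouse array and 2 without the colon array, and 1 rose in each fit but that without the colon array, where 0 did. Nidogen 1 (Nid1) had a slope of −1.64 (0.15 in its other probe set), and laminin alpha 4 (Lama4), a chain of vessel basement membranes, one of −1.61 (0.26 in its other probe set). Laminin beta 3 (Lamb3), a chain of the laminin under epithelia, had log2 signals of 8.46, 9.58, 10.10, 10.41 and 10.68 (slope 2.11, SE 0.32, limma adjusted p = 0.0169), and Lama3, its partner, had a slope of 1.09. Lamb3 did not pass without the 75% mix (adjusted p = 0.0719) or without the colon array (0.063). Perlecan (Hspg2) stayed between 8.89 and 9.08 (adjusted p = 0.578), and its dimmer probe set had a slope of −0.90. With a gene's probe sets averaged, Hspg2 passed (slope −0.51, adjusted p = 0.0306), Lama4 did not (−0.68, adjusted p = 0.0622) and Nid1 had −0.75.

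Promoter letters were compared over the 27 measured collagen genes present in the RefSeq promoter table (30 windows of 250 bases before a start). On either strand a GC box (GGGCGG) was present in 16 of 30 windows, against 32.7% of all 32851 windows, and a CCAAT box in 12 of 30, against 33.8%. A TATA box (TATAAA) was in 5, against 12.4%, and the SOX core (AACAAT) in 1, against 9.42%. Of the 19 windows of fallen genes, 12 held a GC box and 9 a CCAAT box. These are counts of letters and say nothing of which factor binds.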

How the data were processed

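The authors deposited log2 signals made with RMA, per the submitters' processing notes (version not given in the sources used here), for 22690 probe sets on 5 arrays. RMA's quantile step makes signals relative to the whole array, and its median polish gave tied values in 11 of the 58 collagen probe sets. The 64 control probe sets were left out of the tests. The platform annotation paired 20380 probe sets with 1 gene, and symbols were checked by gene identifier against RefSeq (GRCm38.p6).

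Log2 signal was regressed on colon share with limma 3.58.1 in R 4.3.3 (eBayes, 3 residual degrees of freedom, 2-sided, Benjamini-Hochberg over all 22626 probe sets, threshold 0.05) and tested on simulated data. Classes and lists were described by counts and medians. All 5 values were printed for fibrillar, cartilage and type IV chains and for chains of trimers I, V, VI, VIII, IX and XI, and from each list the 3 largest changes that passed and the brightest gene that did not were named. Full values of Col7a1, Col15a1, Col17a1, Col18a1 and Col22a1 were chosen after their values were seen. So were further genes (Serpinh1, Creb3l1, Mia3, Lama3, Prelp, Ddr1, Cdh5 and other endothelial, smooth muscle and fibroblast genes). Members and lists were chosen with earlier results of these data known. With 1 array per mix, the number of arrays limits the precision.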

Additional observations from a re-analysis of the deposited data

How the results depend on the processing

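The fall of collagen chains kept its direction under each alternative tried. Of the 36 genes, 26 fell with arrays centred on their medians, with linear intensities and with a gene's probe sets averaged. With dim probe sets left out, 26 of the 33 genes then measured fell. Each time these were the 25 plus Col9a1. With an intensity trend and robust moderation 24 of 36 fell (without Col1a1), and with the steepest probe set per gene 25 did. In each of these settings 0 rose. With 1 array left out, between 12 and 21 fell: 2 to 4 fibrillar, 4 to 5 cartilage, 2 to 4 basement membrane and 4 to 9 other chains. Falls then numbered 3 to 6 among folding genes, 4 to 6 in propeptide removal and cross-linking, 2 to 3 among fibril-binding genes, 5 to 6 in breakdown and 2 to 6 among other basement membrane components, with rises of 0, 0, 0 to 1, 0 and 0 to 1, and receptors had 0 of either. Such fits have 2 residual degrees of freedom and called fewer probe sets of any kind. Centring made 1 receptor rise in place of 0, and averaging probe sets made Hspg2 fall (adjusted p = 0.0306) and ended the call of Lama4 (0.0622). Signs turned only in genes that passed nowhere. With centring the slopes were 0.0131 (Col4a4), 0.0189 (Col8a1), 0.0369 (Col25a1) and 0.0665 (Pepd), and with probe sets averaged 0.156 (Col8a1) and −0.0107 (Col19a1). Leaving out 1 array gave −0.567 to 0.114 (Col4a3), −0.118 to 0.0211 (Col8a1), −0.243 to 0.270 (Col25a1) and −0.0283 to 0.0147 (Pepd), each highest without the whole mouse array; the cause was not tested. The median undiluted difference was −1.66 log2, and −1.59 after centring. The median departure from proportional mixing kept its sign with centring and with background taken off. No paired analysis was possible because each mix has 1 array. Signals within the range of the control probe sets, in colon those of 6 members, have no exact fold.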
